A study of Mus musculus with 10 samples.

Results

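Expression of 10 genes of the interleukin-1 (IL-1) family and the inflammasome was followed across 5 myeloid cell populations of the mouse mammary gland. The genes were chosen by name from the gene table, as ligands (Il1a, Il1b, Il18), soluble antagonists (Il1rn, Il18bp), receptor chains (Il1r1, Il1r2, Il1rap) and components of the NLRP3 inflammasome (Nlrp3, Casp1), and all 10 were found among its 27179 genes. All 10 also passed the filter on low counts. The cells were sorted fresh from untreated C57BL/6 females, adult and virgin. They comprised 2 macrophage populations, ductal and stromal, and 3 of dendritic cells, which were CD11b-CD103+ (called CD103+ cells here), CD11b-CD103- (CD103- cells) and CD11b+ (CD11b+ cells). Each was sequenced in 2 biological replicates, and the labels do not say whether a replicate is 1 mouse or a pool. Ductal macrophages are the macrophages that lie along the epithelium of the mammary ducts, and stromal macrophages are those of the tissue between the ducts.

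IL-1alpha and IL-1beta both signal through the receptor IL-1R1 with its accessory chain IL-1RAP. The receptor antagonist encoded by Il1rn occupies IL-1R1 without signalling, and IL-1R2 is a decoy receptor that binds IL-1 but lacks a signalling domain. IL-1beta and IL-18 are made as precursors that caspase-1 cleaves after a sensor such as NLRP3 assembles an inflammasome, and IL-18 is held in check by the binding protein encoded by Il18bp. Transcript levels say nothing of cleavage or release, which were not measured.

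The genes of both IL-1 ligands and of their antagonist lie on mouse chromosome 2. In the GRCm38 annotation Il1a covers chr2:129299610-129309972 on the minus strand, Il1b covers chr2:129364570-129371139 on the minus strand, and Il1rn covers chr2:24336853-24351494 on the plus strand, all 3 protein coding. The 250 bases upstream of a transcription start are shown for both IL-1 ligands and their antagonist. These genes are 3 of the 4 members with the widest range between populations (the other is the receptor gene Il1r2). The windows come from RefSeq on GRCm38.p6, at chr2:129309973-129310222 for Il1a, chr2:129371140-129371389 for Il1b and chr2:24336610-24336859 for the first of 3 start sites of Il1rn. Capitals mark matches, on either strand, to a TATA box (TATAAA), a PU.1 core (GAGGAA), an AP-1 site (TGANTCA), a C/EBP site, an IRF element or a kappaB site, none of which overlap one another here.
Il1a: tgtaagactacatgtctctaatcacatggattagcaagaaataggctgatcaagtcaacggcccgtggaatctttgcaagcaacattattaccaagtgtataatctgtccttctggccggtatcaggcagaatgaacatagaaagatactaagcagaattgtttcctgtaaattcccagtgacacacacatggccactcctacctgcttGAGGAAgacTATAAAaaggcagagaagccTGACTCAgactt
Il1b: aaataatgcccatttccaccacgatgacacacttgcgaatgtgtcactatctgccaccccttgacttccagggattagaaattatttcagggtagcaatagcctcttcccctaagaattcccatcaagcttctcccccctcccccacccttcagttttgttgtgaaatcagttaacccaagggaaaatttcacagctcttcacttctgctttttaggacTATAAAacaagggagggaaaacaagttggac
Il1rn: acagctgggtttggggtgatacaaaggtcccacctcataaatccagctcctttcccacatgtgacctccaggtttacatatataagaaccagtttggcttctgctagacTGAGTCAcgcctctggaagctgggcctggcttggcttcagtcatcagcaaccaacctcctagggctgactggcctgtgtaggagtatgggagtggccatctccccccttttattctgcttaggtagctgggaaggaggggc
The Il1a window held TATAAA at 32 to 27 bases before the start, GAGGAA at 41 to 36 bases and the AP-1 letters at 12 to 6 bases. The Il1b window held TATAAA at 31 to 26 bases and no other match, and the Il1rn window shown held the AP-1 letters at 141 to 135 bases. The windows of start sites 2 and 3 of Il1rn, which are not shown, held no match. Among 32851 mouse promoters of that length, 12.4% held TATAAA, 23.3% held GAGGAA and 6.75% held TGANTCA. A match describes letters only, and no binding was measured.

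The libraries held from 5636092 to 23093742 counts. Levels are given as CPM, which are counts scaled to a common library total after adjustment by TMM, and 3 counts correspond to 0.119 to 0.683 CPM. Differences are log2 fold changes from edgeR's quasi-likelihood test over all 10 libraries, with their standard errors, and a gene was called at a Benjamini-Hochberg adjusted p under 0.05 over 15681 genes. Mitochondrial transcripts made up 24.8% and 23.13% of the counts of the stromal libraries and 0.631% to 6.29% of the others. Summed dissociation-stress genes stood at 27029 and 18884 CPM in the stromal libraries and between 6895 and 11088 CPM in the others, and their part in any stromal difference was not tested. Macrophage core genes summed to 10406 and 8909 CPM in ductal, 3622 and 2515 CPM in stromal, and 19.1 to 73.4 CPM in CD103+ and CD103- cells. In CD11b+ cells they summed to 1039 and 1008 CPM, and the dendritic cell core genes to 174 and 99.6 CPM, beside 96.6 to 173 CPM in the macrophage libraries and below the 665 to 1066 CPM of CD103+ and CD103- cells. A list of 5 genes of type 2 dendritic cells summed to 2078 and 1619 CPM in CD11b+ cells and 26.4 to 89.8 CPM in CD103+ and CD103- cells. For stromal macrophages this sum was 1740 and 1268 CPM, and for ductal macrophages 933 and 690 CPM. In bulk samples such as these, fewer cells of a type and less RNA per cell cannot be told apart.

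Ductal macrophages stood highest for Il1a, Il1b, Il1r2, Il18bp and Nlrp3, CD11b+ cells for Il1rn, stromal macrophages for Il18 and Casp1, and CD103+ cells for Il1r1 and Il1rap. For 6 of the 10 genes (Il1a, Il1b, Il18bp and Nlrp3 in ductal macrophages, Il1rn in CD11b+ cells and Casp1 in stromal macrophages) the highest population was called above each of the other 4, as was the case for 9.94% of all genes tested. The 10 genes were chosen with earlier results of these data known, so this count and share are given as a description. In single pairs of populations, 0.0319% to 35.3% of all genes were called. The count of 6 genes fell most without replicate 1 of the ductal macrophages or replicate 1 of the CD11b+ cells. Between the highest and lowest population the mean log2 CPM spanned 8.94 for Il1rn, 7.69 for Il1a, 7.16 for Il1r2 and 6.91 for Il1b, against 1.45 for Il1r1 and 1.44 for Il18.

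**Figure D1:**
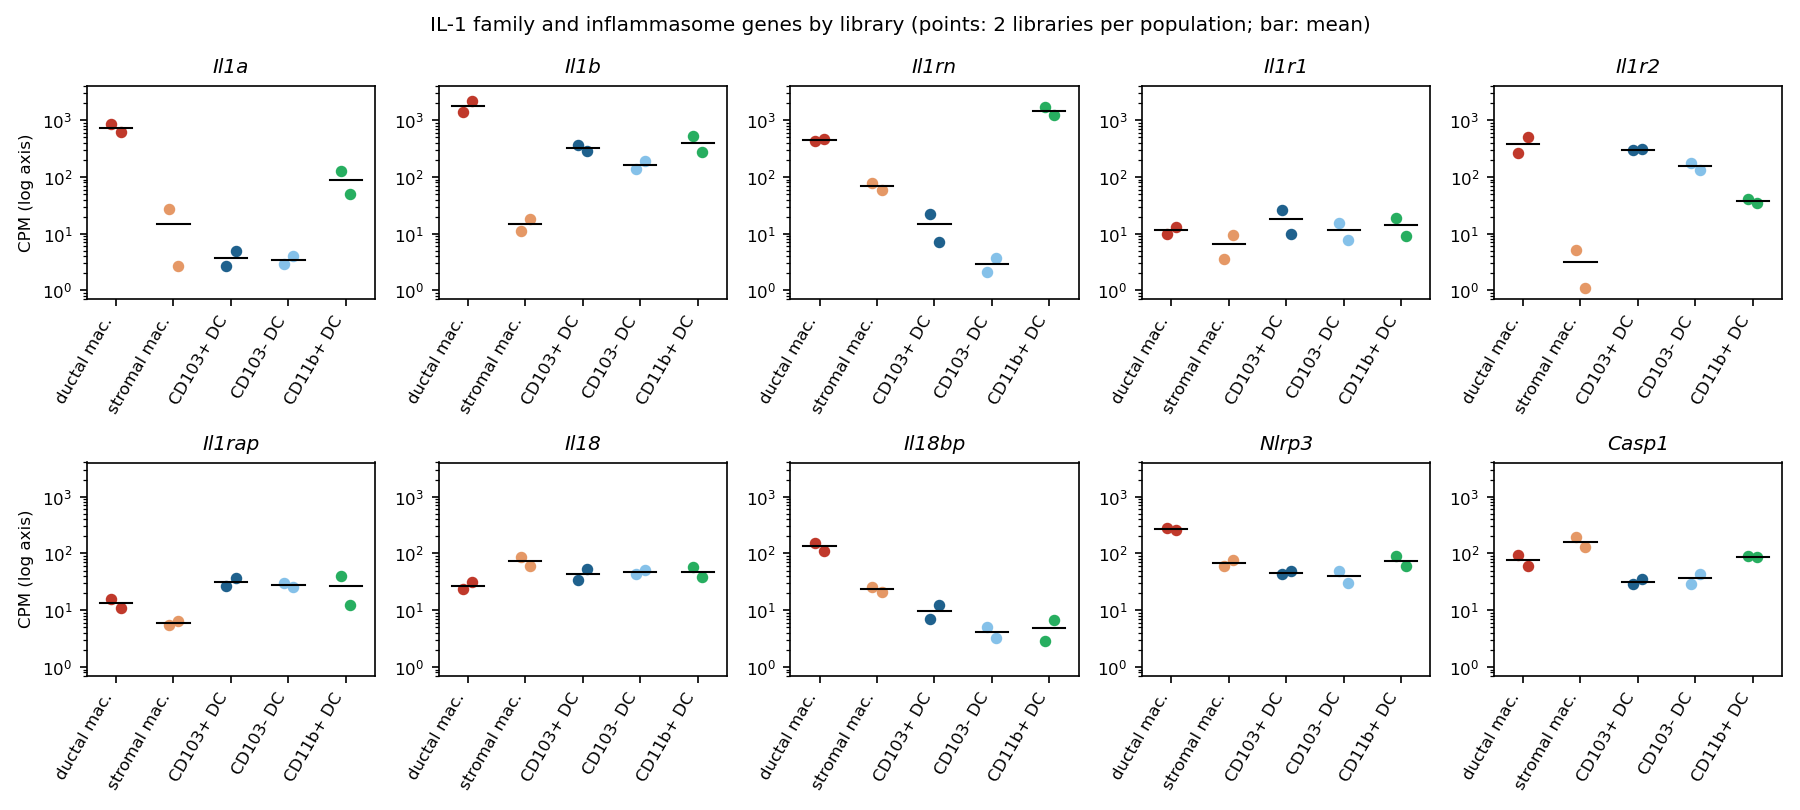
Level of each of the 10 genes in CPM on a log axis, with a point for each of the 2 libraries of a population and a bar at their mean. Il1a, Il1b, Il18bp and Nlrp3 are highest in both ductal macrophage libraries and Il1rn in both CD11b+ libraries, while Il1r1 and Il18 span the smallest ranges of the 10 genes.

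Against stromal macrophages, ductal macrophages had higher levels of 6 genes and lower levels of 2, where 16.3% of all genes were called higher and 14.3% lower (30.6% in all). The median log2 fold change was 2.26 over the 10 genes and -0.10 over all genes tested. Against the mean of the 3 dendritic cell populations, taken on the log scale with equal weight for each, ductal macrophages had 7 genes higher and 0 lower, with 15.0% and 11.6% of all genes called so (26.6% in all). No member was called lower by edgeR's quasi-likelihood test. In either direction 9 of the 10 had an unadjusted p under 0.05 in that test, as did 5945 of the 15681 genes tested. DESeq2 called Il18 and Il1rap lower. The median was 2.03 against -0.09 over all genes. Stromal macrophages had 3 genes higher and 3 lower than the same dendritic cell mean, where 20.3% and 18.2% of all genes were called (38.4% in all), with medians of 0.44 and 0.03. CD11b+ cells had 4 genes higher and 1 lower than the mean of CD103+ and CD103- cells, beside 14.0% and 11.0% of all genes (25.1% in all), with medians of 0.43 and -0.07. Between CD103+ and CD103- cells 0 of the 10 genes were called, as were 0.0319% of all genes. In that comparison 3 members and 1000 of all genes had an unadjusted p under 0.05, and DESeq2 called 1 member. The comparisons with dendritic cells share those libraries, so their values are not independent of one another.

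**Figure D2:**
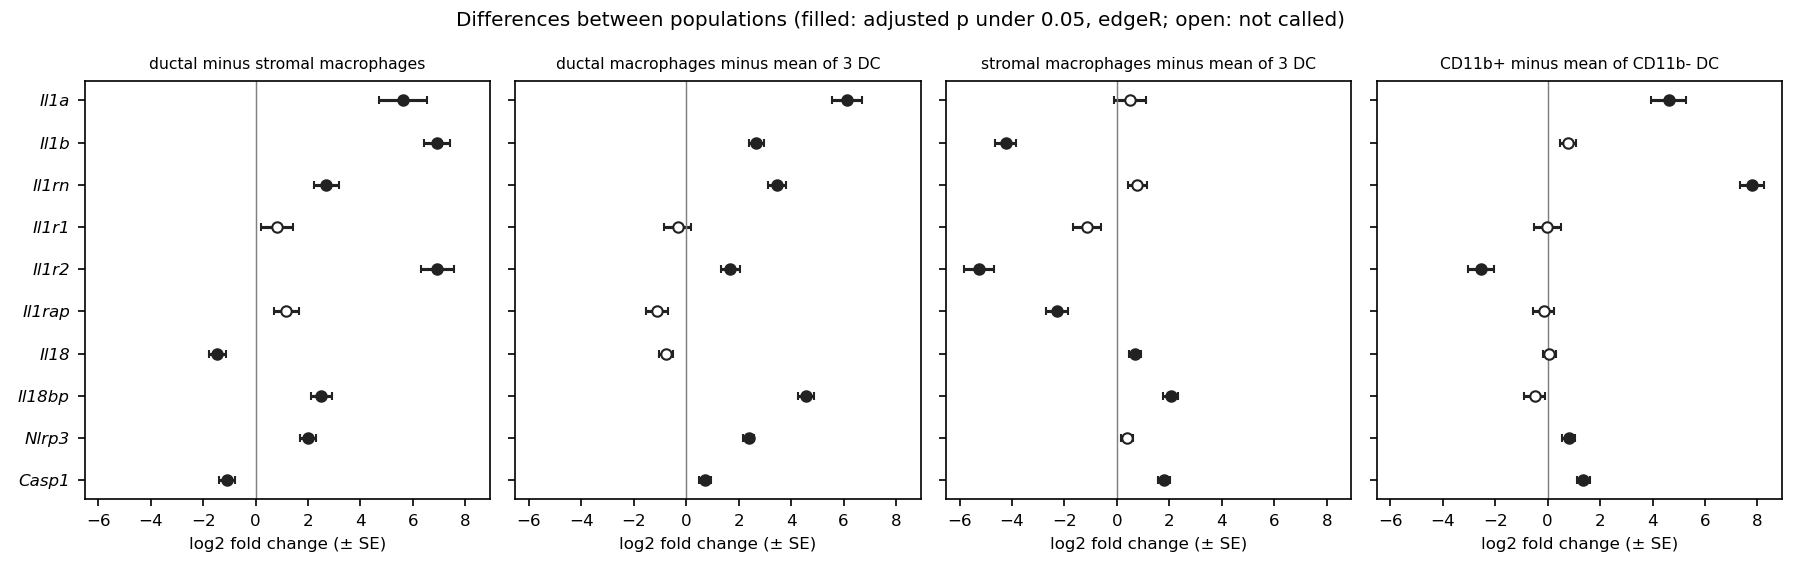
Log2 fold change of each gene in the 4 comparisons in which members were called, with bars of 1 standard error, where filled points have an adjusted p under 0.05 and open points do not. The points of Il1b and Il1r2 lie near 6.9 for ductal against stromal macrophages, and that of Il1rn at 7.79 for CD11b+ against CD103+ and CD103- cells.

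Il1b, the ligand that depends on caspase-1 for its release, was far higher in ductal than in stromal macrophages and lay between them in all 3 dendritic cell populations. It stood at 1399 and 2135 CPM in ductal macrophages, 11.4 and 17.8 CPM in stromal macrophages, 365 and 288 CPM in CD103+ cells, 137 and 189.5 CPM in CD103- cells, and 520.3 and 272 CPM in CD11b+ cells. The ductal libraries lay above all 8 others and the stromal libraries below all 8 others. The mean was 1767 ± 520.2 CPM (SD, n = 2) in the ductal libraries and 14.6 ± 4.57 CPM (SD, n = 2) in the stromal ones, a log2 fold change of 6.92 ± 0.48 (adjusted p = 5.48e-06). Ductal macrophages exceeded CD11b+ cells, the next population, by 2.16 ± 0.39 (adjusted p = 0.00233), and the dendritic cell mean by 2.68 ± 0.28 (adjusted p = 3.4e-05). Stromal macrophages fell below the dendritic cell mean by a log2 fold change of -4.24 ± 0.40 (adjusted p = 1.79e-05). CD11b+ and CD103+ cells, whose libraries overlapped, did not differ beyond their spread (0.28 ± 0.37, adjusted p = 0.636). CD103+ libraries lay above CD103- libraries by 1.00 ± 0.37, a step that was not called (adjusted p = 0.691).

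Il1b and the decoy receptor gene Il1r2 are also abundant in neutrophils, so neutrophil markers were summed. They reached 169 and 135 CPM in ductal macrophages, of which Csf3r, the receptor of granulocyte colony-stimulating factor, made up 169 and 135 CPM. The neutrophil genes S100a8, S100a9, Retnlg, Ly6g, Cxcr2, Ngp and Camp had 0 counts in both ductal libraries, making 7 of 9 markers at 0. The sums were 35.6 and 28.3 CPM in stromal macrophages, 24.5 and 32.3 CPM in CD11b+ cells and 0.713 to 1.17 CPM in CD103+ and CD103- cells. S100a8 and S100a9 were also at 0 in CD11b+ cells, where Retnlg made up 23.0 and 30.3 CPM. The part of neutrophils in the Il1b and Il1r2 levels was not tested.

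Il1a, whose product is active without caspase-1, was the other ligand that peaked in ductal macrophages. It was measured at 868 and 615 CPM there, 27.3 and 2.66 CPM in stromal macrophages, 2.66 and 4.91 CPM in CD103+ cells, 2.90 and 3.98 CPM in CD103- cells, and 128 and 49.4 CPM in CD11b+ cells. Both ductal libraries lay above all others, both CD11b+ libraries came next, and the stromal libraries, 10.3-fold apart, overlapped with the remaining 4. Ductal exceeded stromal macrophages by 5.63 ± 0.91 on the log2 scale (adjusted p = 0.000977), the dendritic cell mean by 6.13 ± 0.59 (adjusted p = 2.01e-05), and CD11b+ cells by 3.06 ± 0.80 (adjusted p = 0.0185). CD11b+ cells exceeded stromal macrophages by 2.57 ± 0.80 (adjusted p = 0.0356) and the mean of CD103+ and CD103- cells by 4.62 ± 0.67 (adjusted p = 0.000638).

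The level of Il1a in stromal macrophages rested on the choice of library. Against the dendritic cell mean the difference was 0.51 ± 0.62 (adjusted p = 0.555) with both libraries, -2.06 (adjusted p = 0.0202) without stromal replicate 1 and 1.37 (adjusted p = 0.025) without stromal replicate 2. The same omissions gave 8.15 and 4.76 for ductal against stromal macrophages, both called. The step from ductal macrophages to CD11b+ cells was no longer called without CD11b+ replicate 1 (adjusted p = 0.0508), CD11b+ replicate 2 (0.157) or ductal replicate 1 (0.0928), and the CD11b+ excess over CD103+ and CD103- cells was 3.76 (adjusted p = 0.0128) without CD11b+ replicate 1. Mast cell and basophil markers summed to 102 and 37.5 CPM in the stromal libraries and to between 0 and 7.86 CPM in the others, and their part in the stromal Il1a level was not tested.

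On a per-length scale Il1b exceeded Il1a in ductal macrophages, with 1330.5 CPM per kilobase for Il1b and 375 for Il1a. The ratio of Il1a to Il1b per kilobase was 0.417 and 0.194 in the ductal libraries and 0.165 and 0.122 in the CD11b+ libraries, and it ranged from 0.0049 to 0.0142 in CD103+ and CD103- cells. The stromal ratios of 1.61 and 0.1001 lay on either side of 1. A transcript on the opposite strand, Gm14023, overlaps Il1a, and Il1bos overlaps Il1b. No source used here says whether the counting used strand, so reads of each pair cannot be told apart. Il1bos had at most 1.71% of the Il1b count in any library. Gm14023 had 3.39% and 4.75% of the Il1a count in ductal macrophages but up to 77.3% in CD103- cells, which leaves the low dendritic cell values of Il1a uncertain.

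Il1rn, the receptor antagonist, had another order, with CD11b+ cells at the top. It stood at 1706 and 1241 CPM in CD11b+ cells, 427 and 462 CPM in ductal macrophages, 78.5 and 59.2 CPM in stromal macrophages, 22.5 and 7.01 CPM in CD103+ cells, and 2.14 and 3.75 CPM in CD103- cells. No 2 populations overlapped in their libraries. CD11b+ cells exceeded ductal macrophages by 1.73 ± 0.46 on the log2 scale (adjusted p = 0.0198), ductal exceeded stromal macrophages by 2.69 ± 0.48 (adjusted p = 0.00176), and stromal macrophages exceeded CD103+ cells by 2.22 ± 0.47 (adjusted p = 0.00463). The last step, from CD103+ to CD103- cells, was 2.30 ± 0.50 and was not called (adjusted p = 0.218). It passed with DESeq2 (2.35, adjusted p = 0.000362), with no filter on low counts (2.31, adjusted p = 0.00232) and without CD103+ replicate 2 (2.90, adjusted p = 0.0424). Without CD11b+ replicate 1, ductal replicate 1 or ductal replicate 2 the top step had adjusted p-values of 0.115, 0.14 and 0.0959.

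Within dendritic cells Il1rn showed the greatest contrast of the 10 genes. CD11b+ cells exceeded the mean of CD103+ and CD103- cells by 7.79 ± 0.44 on the log2 scale (adjusted p = 1.34e-06), a 221-fold difference. Because the dendritic cell populations were so unequal, the log-scale mean of the 3 lay below ductal macrophages by 3.46 ± 0.34 (adjusted p = 2.28e-05), although CD11b+ cells lay above them. The stromal difference from that mean, 0.78 ± 0.36, was not called (adjusted p = 0.111) and passed with no filter (adjusted p = 0.0463) and without CD103+ replicate 1 (1.13, adjusted p = 0.00676). Monocyte markers summed to 1444 and 1044 CPM in CD11b+ cells, of which the chemokine receptor gene Ccr2 gave 1407 and 1014 CPM, and to 67.9 to 801 CPM in the other libraries. The part of other cells in the Il1rn level was not tested.

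Set against the agonist, transcripts of the antagonist gene were in excess per kilobase in CD11b+ cells and stromal macrophages only. Counts per gene do not separate transcripts from the 3 start sites of Il1rn. The ratio of Il1b to Il1rn per kilobase was 0.618 and 0.444 in CD11b+ cells and 0.293 and 0.610 in stromal macrophages. It was 6.64 and 9.37 in ductal macrophages, 32.9 and 83.1 in CD103+ cells, and 129.8 and 102.3 in CD103- cells. The 4 libraries below 1 and the 6 above it thus did not mix. CD11b+ and CD103+ cells, whose Il1b levels did not differ beyond their spread, fell on opposite sides of 1.

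**Figure D3:**
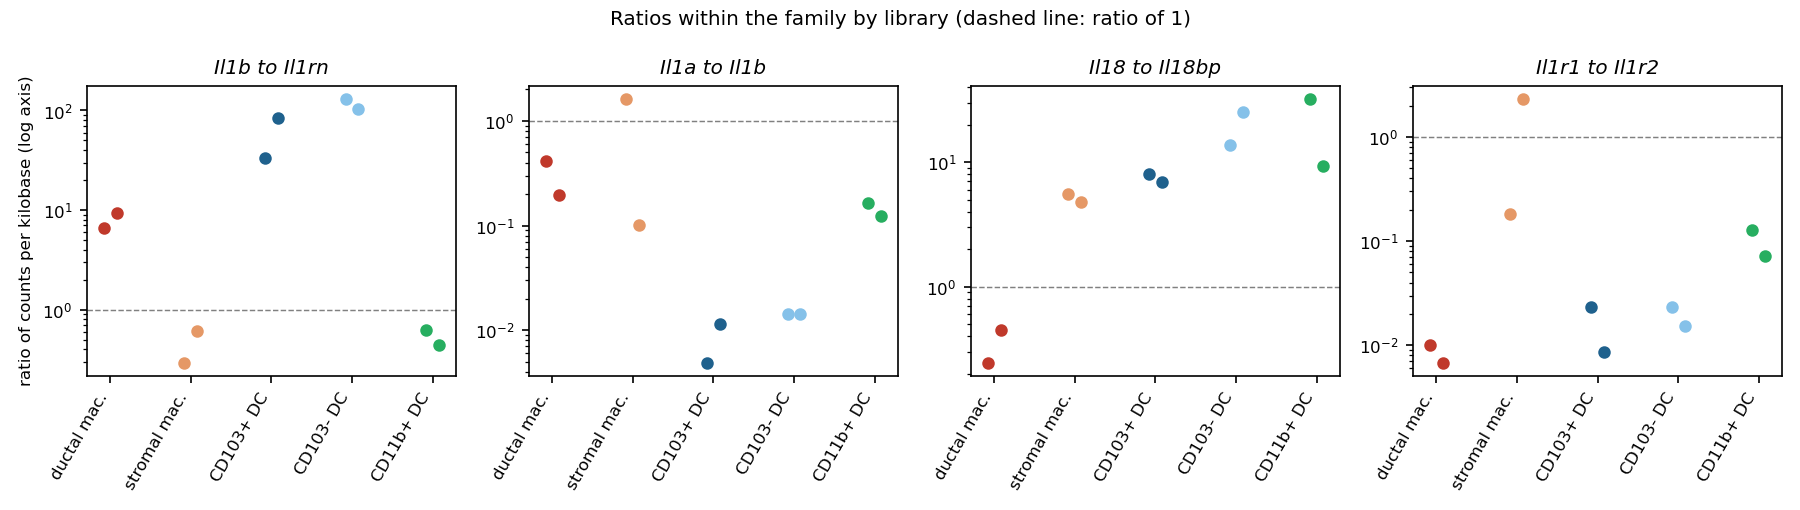
Ratio of 2 transcripts per kilobase in each of the 10 libraries on a log axis, for Il1b to Il1rn, Il1a to Il1b, Il18 to Il18bp and Il1r1 to Il1r2, with a dashed line at 1. Il1b to Il1rn lies below 1 in the stromal and CD11b+ libraries, and Il18 to Il18bp lies below 1 in the 2 ductal libraries only.

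Il1r2, the decoy receptor (chr1:40074079-40125231, plus strand), was abundant in ductal macrophages and in CD103+ and CD103- cells and nearly missing from stromal macrophages. It stood at 267 and 503 CPM in ductal macrophages, 303 and 305 CPM in CD103+ cells, 177 and 134 CPM in CD103- cells, 40.3 and 34.1 CPM in CD11b+ cells, and 5.19 and 1.10 CPM in stromal macrophages. The ductal libraries lay on either side of the CD103+ libraries, and these populations did not differ beyond their spread (0.34 ± 0.48, adjusted p = 0.641). The CD103+ libraries lay above the CD103- libraries, by a step that was not called (0.97 ± 0.48, adjusted p = 0.83). CD103- cells exceeded CD11b+ cells by 2.06 ± 0.50 (adjusted p = 0.0175), and CD11b+ cells exceeded stromal macrophages by 3.56 ± 0.56 (adjusted p = 0.00106).

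Between the macrophages the Il1r2 difference was 6.93 ± 0.63 on the log2 scale (adjusted p = 2.38e-05), as large as that of Il1b, and stromal macrophages lay below the dendritic cell mean by -5.25 ± 0.57 (adjusted p = 4.52e-05). The stromal libraries differed from each other, so without stromal replicate 1 these were 8.48 and -6.85, and without stromal replicate 2 they were 6.21 and -4.54, all called. CD11b+ cells were below the mean of CD103+ and CD103- cells by -2.54 ± 0.48 (adjusted p = 0.00314), a call that missed the threshold without CD11b+ replicate 2 (-2.42, adjusted p = 0.0544). The ductal excess over the dendritic cell mean was 1.67 ± 0.37 (adjusted p = 0.00584), with overlapping libraries, and 1.14 (adjusted p = 0.134) without ductal replicate 2. The antisense gene Gm16894 had up to 52.6% of the Il1r2 count, in stromal replicate 2.

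Il1r1, the signalling receptor (chr1:40225080-40317257, plus strand), was low in every population and no comparison called it. Its values were 10.02 and 12.9 CPM in ductal macrophages, 3.53 and 9.47 CPM in stromal macrophages, 26.4 and 9.78 CPM in CD103+ cells, 15.5 and 7.60 CPM in CD103- cells, and 19.2 and 9.16 CPM in CD11b+ cells. The stromal libraries lay just below the ductal and CD103+ libraries and within reach of the others, and all other pairs of populations overlapped. Ductal and stromal macrophages differed by 0.82 ± 0.63 on the log2 scale (adjusted p = 0.346). Stromal macrophages against the dendritic cell mean gave -1.15 (adjusted p = 0.109), which was -2.03 (adjusted p = 0.0325) without stromal replicate 2 and passed with no filter on low counts (adjusted p = 0.0398). Endothelial cells are known to carry this receptor. Summed endothelial markers in replicates 1 and 2 were 290 and 182 CPM in CD103+ cells and 227 and 68.7 CPM in CD103- cells. They were 40.3 and 91.2 CPM in ductal macrophages, 25.3 and 83.6 CPM in stromal macrophages, and 34.2 and 51.2 CPM in CD11b+ cells. Il1r1 was higher in the same replicate as these markers except in CD11b+ cells, where it went the other way. The same held for summed epithelial markers (918 and 463 CPM in CD103+ cells) and adipocyte markers (499 and 349 CPM there). The match was thus not particular to endothelial markers. The part of any of these cells in the Il1r1 level was not tested. Per kilobase, Il1r1 was below Il1r2 in 9 of 10 libraries, with ratios from 0.00682 to 0.0234 in ductal macrophages, CD103+ and CD103- cells, 0.127 and 0.0716 in CD11b+ cells, and 0.182 and 2.30 in stromal macrophages.

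Il1rap, the accessory chain shared with other receptors of the family (chr16:26581704-26730117, plus strand), was lowest in stromal macrophages. The stromal libraries were at 5.46 and 6.35 CPM, the ductal at 15.7 and 10.97 CPM, CD103+ cells at 26.2 and 37.7 CPM, CD103- cells at 30.2 and 26.1 CPM, and CD11b+ cells at 40.7 and 12.4 CPM. Stromal macrophages fell below all other libraries, with a difference of -2.29 ± 0.43 from the dendritic cell mean (adjusted p = 0.00189). Ductal against stromal macrophages gave 1.17 ± 0.48 (adjusted p = 0.0906), called with no filter (adjusted p = 0.0399) and without CD11b+ replicate 1 (0.0294) or replicate 2 (0.0276). Ductal macrophages against the dendritic cell mean gave -1.12 (adjusted p = 0.0686), which passed with DESeq2 (adjusted p = 0.0234), with no filter (0.0195), with only the compared populations (0.048), and without stromal replicate 1 (0.0499) or CD11b+ replicate 2 (0.00966).

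Il18 itself (chr9:50554827-50581840, plus strand), a cytokine that drives interferon-gamma in lymphocytes, varied less than its binding protein. It stood at 23.5 and 30.8 CPM in ductal macrophages, 88.1 and 61.1 CPM in stromal macrophages, 34.5 and 52.8 CPM in CD103+ cells, 43.6 and 51.3 CPM in CD103- cells, and 57.1 and 38.1 CPM in CD11b+ cells. The ductal libraries were the lowest of the 10 and the stromal libraries the highest, the reverse of Il1b. Ductal were below stromal macrophages by -1.46 ± 0.32 on the log2 scale (adjusted p = 0.00584), which became -1.27 (adjusted p = 0.0691) without ductal replicate 1. No neighbouring populations in the order of levels were called apart.

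Against the dendritic cell mean, Il18 was 0.69 ± 0.24 higher in stromal macrophages (adjusted p = 0.0415), a call lost without any 1 of 7 of the 10 libraries (adjusted p from 0.0512 to 0.445, the highest without stromal replicate 1). These 7 were both ductal, both CD103- libraries, stromal replicate 1, CD103+ replicate 1 and CD11b+ replicate 2, and the call was also lost with RLE size factors (0.0507) and with only the compared populations (0.0717). Ductal macrophages against that mean gave -0.77 ± 0.27 (adjusted p = 0.0582), which passed with RLE size factors (0.0485), without mitochondrial genes (0.0499), with DESeq2 (0.0232), with no filter (0.0327), with only the compared populations (0.0313) and without stromal replicate 1 (0.0332), stromal replicate 2 (0.0415) or CD103+ replicate 1 (0.0432). Bco2 and Tex12, on the opposite strand, overlap Il18, and Bco2 had up to 55.3% of its count.

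Il18bp, the soluble inhibitor of IL-18 (chr7:102014885-102018690, minus strand), was highest in ductal macrophages, where its ligand was lowest. It was at 155 and 112 CPM there, 25.8 and 20.9 CPM in stromal macrophages, 6.95 and 12.3 CPM in CD103+ cells, 5.11 and 3.30 CPM in CD103- cells, and 2.89 and 6.64 CPM in CD11b+ cells. The ductal libraries lay above all others, the stromal libraries above all 6 dendritic cell libraries. Ductal exceeded stromal macrophages by 2.51 ± 0.41 on the log2 scale (adjusted p = 0.000992) and the dendritic cell mean by 4.56 ± 0.30 (adjusted p = 1.23e-06). Stromal macrophages exceeded that mean by 2.04 ± 0.30 (adjusted p = 0.000405) and CD103+ cells by 1.28 ± 0.40 (adjusted p = 0.0297). The dendritic cell populations were not called apart. Per kilobase, the ratio of Il18 to Il18bp was 0.245 and 0.447 in ductal macrophages, 5.53 and 4.74 in stromal macrophages and 6.94 to 32.0 in dendritic cells, so only the ductal libraries had more of the inhibitor than of the cytokine. Numa1 overlaps Il18bp by 80 bases on the other strand, with 64.3% and 71.6% of the Il18bp count in the ductal libraries and more counts than Il18bp in the other 8.

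Nlrp3, the sensor (chr11:59541568-59566956, plus strand), followed the IL-1 ligands into ductal macrophages. It was at 284 and 254 CPM in ductal macrophages, 59.4 and 75.3 CPM in stromal macrophages, 43.4 and 48.7 CPM in CD103+ cells, 49.7 and 30.3 CPM in CD103- cells, and 90.6 and 58.9 CPM in CD11b+ cells. Both ductal libraries lay above the other 8, which stayed within 30.3 to 90.6 CPM. Ductal macrophages exceeded stromal macrophages by 2.00 ± 0.30 on the log2 scale (adjusted p = 0.000651), the dendritic cell mean by 2.38 ± 0.22 (adjusted p = 1.43e-05) and CD11b+ cells by 1.84 ± 0.30 (adjusted p = 0.00131). CD11b+ cells were 0.81 ± 0.25 above CD103+ and CD103- cells (adjusted p = 0.0359). This smaller step was lost without either ductal or either CD103+ library, CD103- replicate 2 or CD11b+ replicate 1 (adjusted p from 0.0562 to 0.42).

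Casp1, the protease that the sensor activates (chr9:5298517-5307265, plus strand), did not follow Nlrp3 and was highest in stromal macrophages. It was at 192 and 132 CPM in stromal macrophages, 90.1 and 85.5 CPM in CD11b+ cells, 92.7 and 61.1 CPM in ductal macrophages, 28.9 and 43.8 CPM in CD103- cells, and 28.7 and 35.3 CPM in CD103+ cells. The stromal libraries lay above all others, and the CD103+ and CD103- libraries below all others. Stromal macrophages exceeded the dendritic cell mean by 1.79 ± 0.22 on the log2 scale (adjusted p = 0.000118), and CD11b+ cells exceeded CD103+ and CD103- cells by 1.36 ± 0.25 (adjusted p = 0.0025). Ductal were below stromal macrophages by -1.08 ± 0.30 (adjusted p = 0.0193), which became -0.81 (adjusted p = 0.151) without ductal replicate 2 and -0.76 (adjusted p = 0.106) without stromal replicate 1.

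The closer steps in Casp1 were near the threshold. Stromal macrophages over CD11b+ cells gave 0.89 ± 0.30 (adjusted p = 0.048), no longer called with RLE size factors (0.0518) or without either ductal, either CD103+ or either CD11b+ library or stromal replicate 1 (0.0523 to 0.253). Ductal macrophages over the dendritic cell mean gave 0.72 ± 0.24 (adjusted p = 0.0443), with overlapping libraries, and this was lost without ductal replicate 1 (0.38, adjusted p = 0.516), either CD103+ library, CD103- replicate 1 or either CD11b+ library (0.0574 to 0.0926).

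The wider pathway was read from 55 further genes, of which 46 passed the filter on low counts. The 9 that did not, with at most 14 counts in any library, were the IL-36 genes Il36a, Il36b, Il36g and Il36rn, with Il1f10, Il1rapl1, Il1rapl2, Nlrp12 and Naip1. In ductal against stromal macrophages 14 of the 46 were higher and 8 lower, and against the dendritic cell mean 16 were higher and 7 lower, beside 16.3% and 14.3% of all genes in the former comparison and 15.0% and 11.6% in the latter. Stromal macrophages had 15 higher and 12 lower than that mean (20.3% and 18.2% of all genes), and CD11b+ cells had 17 higher and 3 lower than CD103+ and CD103- cells (14.0% and 11.0% of all genes). Between CD103+ and CD103- cells edgeR's quasi-likelihood test called 0, with 5 at an unadjusted p under 0.05 (1000 of all genes), and DESeq2 called 1. Median log2 fold changes over the 46 genes were 0.40, 0.21, 0.11, 0.34 and 0.08 in these 5 comparisons, beside -0.10, -0.09, 0.03, -0.07 and -0.02 over all genes. Without ductal replicate 1, fewer of these genes were called higher and lower in both ductal comparisons, and so were fewer of all genes tested. The same held without ductal replicate 2 for genes lower than in dendritic cells. In CD11b+ cells it held for genes higher without CD11b+ replicate 1 and for genes lower without CD11b+ replicate 2. The count of these genes higher in ductal than in stromal macrophages also fell without stromal replicate 2. The count lower in CD11b+ cells fell without CD103+ replicate 2 and rose without stromal replicate 1.

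Among 12 other sensors and adaptors tested, 4 were higher and 2 lower in ductal than in stromal macrophages, beside 16.3% and 14.3% of all genes. Nlrc4, which with NAIP proteins detects bacterial flagellin, was the most macrophage-weighted of them. It stood at 60.6 and 56.0 CPM in ductal macrophages, 14.2 and 24.0 CPM in stromal macrophages, and 0.483 to 3.92 CPM in dendritic cells. Its levels exceeded the dendritic cell mean by 5.58 ± 0.29 on the log2 scale in ductal (adjusted p = 3.07e-07) and 3.97 ± 0.29 in stromal macrophages (adjusted p = 2.93e-06). Nlrp1a and Nlrp1b, sensors with close sequence copies whose reads may be split, were 3.55 ± 0.47 and 2.44 ± 0.29 higher in ductal than in stromal macrophages (adjusted p = 0.000263 and 0.000135), and Nlrp1a was 4.20 higher without stromal replicate 1. Ductal macrophages also exceeded the dendritic cell mean for Nlrp1a (2.35 ± 0.32, adjusted p = 0.000267). For Nlrp1b they were not called apart from it (0.16 ± 0.22, adjusted p = 0.65). Txnip, a thioredoxin-binding protein reported to act on NLRP3, went the other way, at 65.4 and 71.5 CPM in the ductal libraries and 973 and 694 CPM in the stromal ones (-3.61 ± 0.40, adjusted p = 8.06e-05).

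Pycard, which encodes the adaptor ASC that joins sensor to caspase-1, was led by CD11b+ cells. It stood at 255 and 387 CPM there, 125 and 101 CPM in stromal macrophages, 43.5 and 47.9 CPM in ductal macrophages, and 35.6 to 63.1 CPM in CD103+ and CD103- cells. CD11b+ cells exceeded CD103+ and CD103- cells by 2.63 ± 0.24 on the log2 scale (adjusted p = 2.45e-05). Ductal were below stromal macrophages by -1.30 ± 0.29 (adjusted p = 0.00684). Pycard thus peaked in another population than Nlrp3, which was highest in ductal macrophages. Mefv, encoding the sensor pyrin, was also highest in CD11b+ cells at 57.6 and 34.3 CPM and lowest in stromal macrophages at 2.48 and 1.27 CPM, a stromal difference from the dendritic cell mean of -3.70 ± 0.47 (adjusted p = 0.000144) that was -4.34 without stromal replicate 1.

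Of 8 genes of pyroptosis and release, 2 were higher and 3 lower in ductal than in stromal macrophages (16.3% and 14.3% of all genes), and 6 were higher in stromal macrophages than in dendritic cells (20.3% of all genes). Ninj1, which ruptures the plasma membrane of dying cells, stood at 607 and 584 CPM in the ductal libraries, 1457 and 1072 CPM in the stromal ones, 229 and 196 CPM in CD11b+ cells, and 21.9 to 60.7 CPM in CD103+ and CD103- cells. It exceeded the dendritic cell mean by 3.06 ± 0.21 in ductal (adjusted p = 1.72e-06) and 4.14 ± 0.21 in stromal macrophages (adjusted p = 2.18e-07) on the log2 scale. Casp8, an apoptotic protease that can also cleave pro-IL-1beta, was lower in ductal than in stromal macrophages by -1.30 ± 0.23 (adjusted p = 0.00159). Panx1, a channel for ATP release, was instead higher in ductal than in stromal macrophages by 2.87 ± 0.42 (adjusted p = 0.000514), and P2rx4, an ATP-gated channel, exceeded the dendritic cell mean in ductal macrophages by 2.14 ± 0.20 (adjusted p = 1.78e-05).

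**Figure D4:**
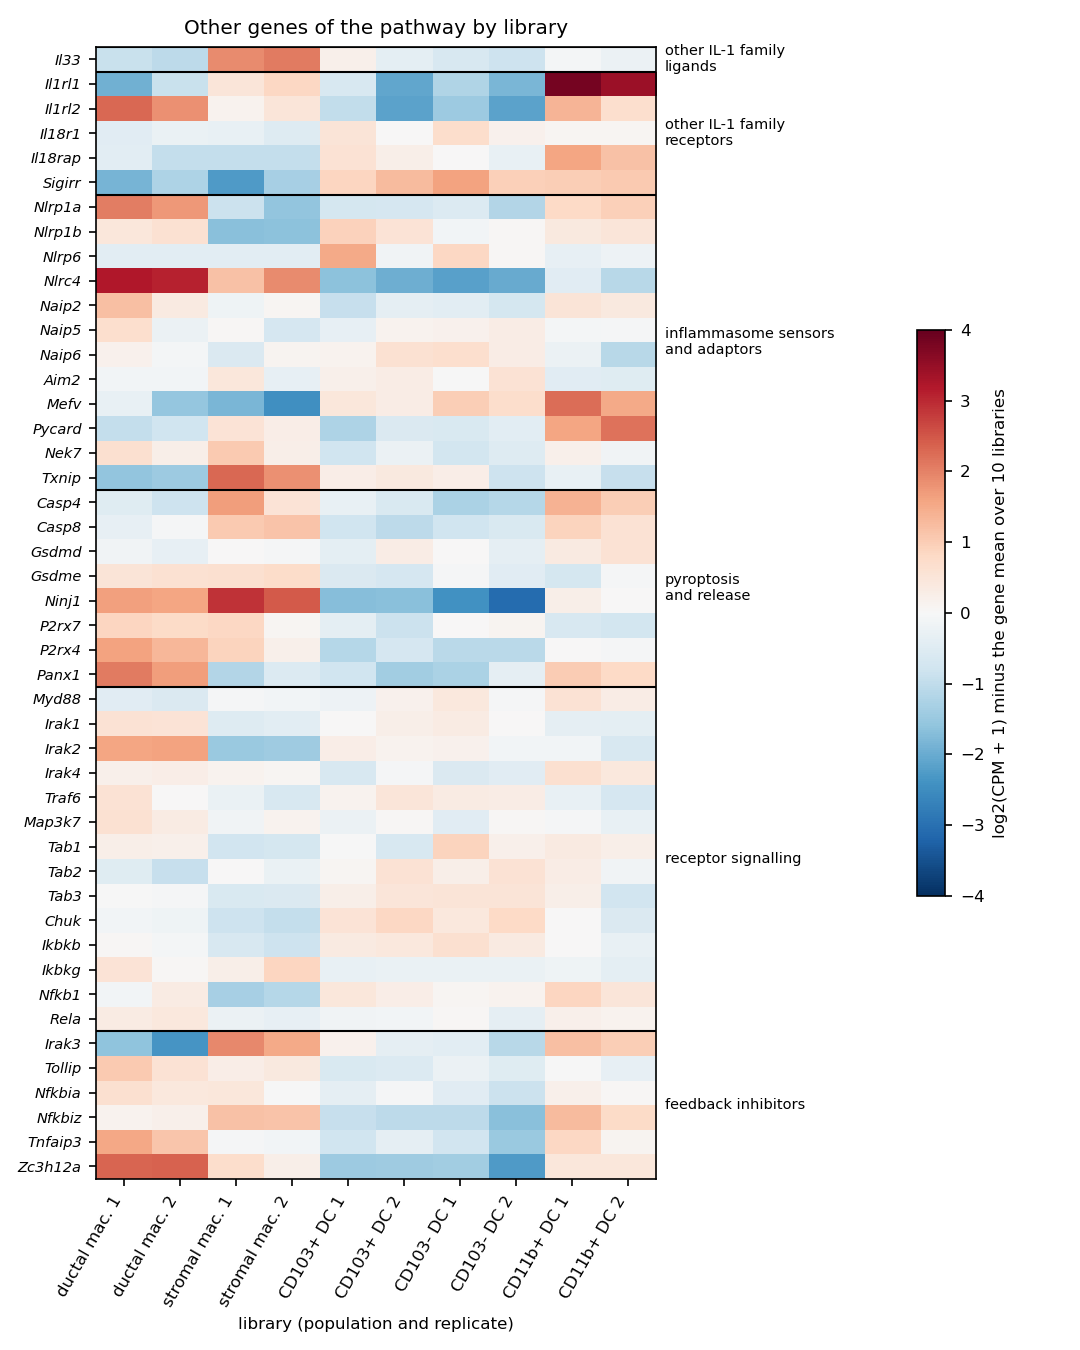
Level of each other pathway gene tested in each library, as log2(CPM + 1) minus the gene's mean over the 10 libraries, with genes grouped by role and colours limited to differences of 4 in either direction. Nlrc4 and Ninj1 are high in the 4 macrophage libraries, Pycard and Il1rl1 in the 2 CD11b+ libraries, and Txnip and Irak3 are low in the ductal libraries.

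Downstream of the receptors, 6 of 14 signalling genes were higher in ductal than in stromal macrophages and the other 8 were not called (16.3% of all genes were higher). In stromal macrophages 1 was higher and 6 lower than in dendritic cells, beside 20.3% and 18.2% of all genes. Irak2, a kinase of the receptor complex, stood at 220.5 and 223 CPM in the ductal libraries, 25.0 and 26.7 CPM in the stromal ones and 46.5 to 86.5 CPM in dendritic cells. The 3 ranges did not overlap, and ductal exceeded stromal macrophages by 3.10 ± 0.25 on the log2 scale (adjusted p = 1.31e-05). Nfkb1, a subunit of the transcription factor NF-kappaB, was 1.38 ± 0.24 higher in ductal than in stromal macrophages (adjusted p = 0.00161) and 1.65 lower on that scale in stromal macrophages than in dendritic cells (-1.65 ± 0.21, adjusted p = 0.000165).

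Of 6 feedback inhibitors, 2 were higher and 2 lower in ductal than in stromal macrophages, where 16.3% and 14.3% of all genes were. Irak3, a family member that dampens signalling, had 2.96 and 1.32 CPM in the ductal libraries and 44.7 and 33.5 CPM in the stromal ones, a difference of -4.21 ± 0.48 (adjusted p = 9.29e-05) that was -4.88 without ductal replicate 1. Zc3h12a, an endonuclease that degrades cytokine transcripts, had 647 and 662 CPM in the ductal libraries, 209 and 153 CPM in the stromal ones and 25.8 to 177 CPM in dendritic cells. Ductal macrophages thus lay above all other libraries for Zc3h12a, by 1.85 ± 0.30 over stromal macrophages (adjusted p = 0.00103), and below all others for Irak3. Tnfaip3, encoding the ubiquitin-editing enzyme A20, was 1.72 ± 0.26 higher in ductal macrophages than the dendritic cell mean (adjusted p = 0.000526).

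Other ligands and receptors of the family were mostly low. Il33, an alarmin, was detected best in stromal macrophages, at 18.5 and 20.9 CPM, against 1.82 and 1.51 CPM in ductal macrophages and 1.95 to 5.002 CPM in dendritic cells, and the stromal excess over dendritic cells was 2.64 ± 0.30 on the log2 scale (adjusted p = 6.43e-05). Il33 is made by stromal and endothelial cells, and fibroblast markers summed to 741 and 988 CPM in stromal libraries, 182 to 570.1 CPM in the others. Endothelial markers summed to 25.3 and 83.6 CPM in stromal libraries and 34.2 to 290 CPM in the others, which overlapped, and were highest in CD103+ cells. Epithelial markers summed to 546 and 1329 CPM in stromal libraries and 159 to 918 CPM in the others. The part of such cells in the Il33 level was not tested. Its receptor gene Il1rl1 was led by CD11b+ cells, at 66.1 and 49.6 CPM, with 5.63 and 7.33 CPM in stromal macrophages and at most 1.98 CPM elsewhere. CD11b+ cells exceeded CD103+ and CD103- cells by 6.13 ± 0.72 (adjusted p = 0.000154), and by 7.65 without CD103+ replicate 1. Sigirr, an inhibitory receptor, was lower in both macrophage types than in dendritic cells, by -2.83 ± 0.39 in ductal (adjusted p = 0.000311) and -3.07 ± 0.38 in stromal macrophages (adjusted p = 0.00012), the latter -3.74 without stromal replicate 2.

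The genes whose log2 CPM ran most closely with the 4 most variable members over the 10 libraries are given as a description, since libraries of 1 population are not independent points. Nearest to Il1b were Bcl2a1a (Pearson r = 0.98), a survival gene with near-identical copies, its own antisense transcript Il1bos (0.98), and Bcl2l11 (0.98), which encodes the death factor BIM. Nearest to Il1a were Gdf3 (0.99), Ctss (0.98) and Tmem189 (0.98), and nearest to Il1rn were the chemokine gene Cxcl3 (0.98), Pilrb1 (0.98) and Rassf8 (0.97). Nearest to Il1r2 were H2-Oa (0.99), a chain of the class II editing molecule H2-O, Gpr55 (0.98) and Dusp2 (0.98), and H2-Oa had mean levels of 124 CPM in ductal macrophages, 106 and 69.6 CPM in CD103+ and CD103- cells, 8.11 CPM in CD11b+ cells and 0.691 CPM in stromal macrophages.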

How the data were processed

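RNA-seq counts of 10 libraries, 2 for each of 5 sorted populations, were used. The deposited values are raw counts per gene, made by the authors with featureCounts on mm10 per the submitters' processing notes. Nothing used here states the aligner, the versions, the annotation or the strand setting. Each library's own table held the same counts as the table of the whole series. Symbols were found for 25275 of 27179 Entrez identifiers in RefSeq.

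In R 4.3.3, edgeR 4.0.16 was run with filterByExpr (minimum count 10, minimum total 15), TMM factors (0.779 to 1.36), and a quasi-likelihood model of all 5 populations (5 residual degrees of freedom) and a common biological coefficient of variation of 0.333. Contrasts weight populations equally on the log scale. Benjamini-Hochberg adjustment covered 15681 genes. Dividing a log2 fold change's size by the root of its F statistic gave its standard error. The model was tested on simulated counts. CPM uses the TMM-adjusted total of tested genes, and per-kilobase values use the deposited gene lengths. Alternatives were DESeq2 1.42.0, RLE size factors, no mitochondrial genes, no filter, only the compared populations, a replicate block and each library left out.

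The members and gene lists were chosen with earlier results of these data known. Of other pathway genes, those named are among the 4 called genes with the largest fold change of each list and comparison. For the 4 members with the widest range, the 3 genes of highest Pearson r are named.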

Additional observations from a re-analysis of the deposited data

How the results depend on the processing

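Counts of calls depended on the tool mainly where they were small. The members called lower in ductal macrophages than in dendritic cells numbered 0 as reported, 1 with RLE size factors, 1 without mitochondrial genes, 2 with DESeq2, 2 with no filter and 2 with only the compared populations. Other pathway genes called lower in CD11b+ than in CD103+ and CD103- cells numbered 3 as reported, 5 with RLE size factors, 6 without mitochondrial genes and 6 with DESeq2. Between CD103+ and CD103- cells, 5 of all genes were higher and 0 lower as reported, 119 and 31 with DESeq2, 106 and 44 with no filter, 3 and 0 with the replicate block, and 3 and 1 with only the compared populations. There, 1 member was higher with DESeq2 and 1 with no filter, and 1 other pathway gene with DESeq2.

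With 1 library left out at a time, the members called lower ranged from 1 to 2 in ductal against stromal macrophages, 0 to 2 in ductal macrophages against dendritic cells, 3 to 4 in stromal macrophages against dendritic cells and 0 to 1 in CD11b+ cells. Members called higher ranged from 2 to 4 in stromal macrophages against dendritic cells, 3 to 4 in CD11b+ cells and 0 to 1 in CD103+ cells. Members highest above every other population ranged from 3 to 6. Other pathway genes higher and lower ranged from 7 to 15 and 5 to 9 (ductal against stromal), 10 to 18 and 2 to 8 (ductal against dendritic), 10 to 17 and 8 to 10 (stromal against dendritic) and 9 to 19 and 0 to 5 (CD11b+). All genes higher and lower ranged from 1555 to 2480 and 981 to 2263, from 1230.0 to 2547 and 755 to 2305, from 2180.0 to 3095 and 2282 to 2671, from 1141 to 2376 and 558 to 2206, and, for CD103+ cells, from 2 to 18 and 0 to 11.

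Signs changed only with a library left out. For CD11b+ against CD103+ and CD103- cells, Il1r1 ranged from -0.66 (without CD11b+ replicate 1) to 0.43 (CD103+ replicate 1), Il1rap from -1.28 to 0.45 and Il18 from -0.26 to 0.34 (CD11b+ replicates 1 and 2), and Il18bp from -1.12 to 0.062 (CD11b+ replicates 2 and 1). For CD103+ against CD103- cells, Il1a ranged from -0.38 to 0.50, Il1rap from -0.10 to 0.42 and Il18 from -0.46 to 0.15 (CD103+ replicates 2 and 1), Il1r1 from -0.24 (CD103+ replicate 1) to 1.25 (CD103- replicate 1), Nlrp3 from -0.11 to 0.60 (CD103- replicates 2 and 1) and Casp1 from -0.45 to 0.15 (CD103- replicates 1 and 2). The values of changed sign were not called. Il1a in stromal macrophages against dendritic cells ranged from -2.06 to 1.37 (stromal replicates 1 and 2), and both were called. The cause of these changes was not tested.

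Whether replicate numbers pair the samples cannot be told from these data. Differences between replicates correlated at -0.176 to 0.177 between populations, with 4 of 10 correlations over 0.1. Those 4 were among ductal, stromal and CD11b+ libraries (0.102 to 0.126) and between CD103+ and CD103- cells (0.177). With the replicate block, Casp1 in ductal macrophages against dendritic cells (adjusted p = 0.0688) and Il18 in stromal macrophages against dendritic cells (0.0602) were not called. With 2 libraries per population, differences near 1 on the log2 scale, and levels near the 0.119 to 0.683 CPM of 3 counts, are at the limit of these data.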
